A study of Mus musculus with 6 samples.

Results

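The genes described here are 38 genes of T cells, natural killer (NK) cells and their cytotoxic machinery, out of 27179 gene IDs counted in 6 mouse RNA libraries. They were chosen by name: 37 of the 38 symbols stand in a comparison table deposited by the authors, and Foxp3, which stands in neither table, was taken by its gene ID (20371) in the RefSeq annotation. Reads were taken by gene ID from the count file of each sample. The study compared 3 groups with 2 libraries each, all from C57BL/6 mice that received no treatment. H7 tumours grew from PANC02-H7 cells and UNKC tumours from UN-KC-6141 cells, both mouse pancreatic carcinoma lines placed surgically in the pancreas, and the tumours were taken 20 days after the injection. The third group was normal whole pancreas. Each tumour group rests on 1 cell line, bulk tissue was sequenced without sorting of cells, and the sex, the age and the mouse of origin of each library are not stated, so p-values measure the spread between these samples. Every gene named here as a member was counted in bulk RNA, in which fewer cells of a type and less RNA per cell cannot be told apart.

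T cells recognise antigen through a receptor made of variable chains, which carry the constant segments Trbc1 or Trbc2 in their beta chain, and the signalling subunits Cd3d, Cd3e, Cd3g and Cd247. The kinases Lck and Zap70 and the adaptor Lat pass the signal on, and the coreceptors Cd4 and Cd8a with Cd8b1 bind class II and class I molecules. Cytotoxic T cells and NK cells kill through perforin (Prf1) and granzymes, NK cells carry activating receptors such as Klrk1 (NKG2D), and long-stimulated T cells display inhibitory receptors such as Havcr2 (TIM-3), Lag3 and Tigit. In pancreatic carcinoma, effector T cells are known to be sparse in many tumours.

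The tumour libraries held 33332516 to 40507546 reads counted in genes and the normal pancreas libraries 12077320 and 8204225, of which ribosomal RNA took 86.4% and 85.0% in normal pancreas and 20.1% to 27.8% in tumours. Levels are given as CPM, reads scaled to a common effective library size. One read was worth 0.463 and 0.477 CPM in the 2 normal libraries and 0.0111 to 0.0145 CPM in the tumours, so a level below 1 CPM is hardly measured in normal pancreas. The count files hold both mates of a pair, and the floor for a gene without a read was set at 3 read pairs over the group, which is 1.41 CPM in normal pancreas, 0.0408 CPM in H7 tumours and 0.0342 CPM in UNKC tumours. Skeletal muscle markers summed to 458 and 1739 CPM in replicates 2 of the H7 and UNKC tumours, against 10.1 and 1.12 CPM in replicates 1 and 6.48 and 2.39 CPM in normal pancreas. Replicates were alike at a correlation of log2(CPM + 1) across genes of 0.984 in H7, 0.970 in UNKC and 0.910 in normal pancreas, where genes are not independent replicates.

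All 38 genes had reads in both kinds of tumour and passed the filter on low counts. In normal pancreas 11 of them had no read in either library, 19 had 1 to 3 read pairs over both libraries and 8 had more. In the edgeR quasi-likelihood test on all 6 libraries, with Benjamini-Hochberg adjustment over 16306 tested genes and a threshold of 0.05, H7 tumours exceeded normal pancreas for 4 of the 38 genes and fell short of it for 3. Of all tested genes 29.6% were higher and 21.9% lower in that comparison. In UNKC tumours 7 were higher and 1 lower, against 29.1% and 19.3% of all genes. Between the tumours 3 of the 38 genes were lower in H7 and none was higher, against 11.1% and 7.06% of all genes. At an unadjusted p below 0.05 none of the 38 was higher in H7 than in UNKC tumours either, and DESeq2 called none higher. These shares lie near or below the background, so the counts of calls are no result about the group.

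Levels between the 2 kinds of tumour had 1 main direction. Both UNKC libraries stood above both H7 libraries for 28 of the 38 genes, both H7 libraries above both UNKC libraries for 2 (Klrk1 and Tigit), and the libraries overlapped for 8. Among all tested genes these shares were 35.9% and 34.5%. The median log2 fold change of H7 over UNKC tumours was -0.997 over the 38 genes and -0.02 over all tested genes, and 19 of the 38 were at least 2-fold lower in H7 as fitted, against 18.0% of all genes. Summed over the 38 genes, the level was 45.0 and 66.4 CPM in the H7 libraries, 91.9 and 98.6 CPM in the UNKC libraries and 31.5 and 52.0 CPM in normal pancreas. Replicate 2 of H7 exceeded replicate 1 for 34 of the 38 genes, against 50.9% of all genes, and replicate 2 of UNKC exceeded replicate 1 for 21. Those replicates 2 are the libraries with more muscle reads, whose part in the result was not tested. In the libraries with few muscle reads, UNKC replicate 1 exceeded H7 replicate 1 for 34 of the 38 genes (50.5% of all genes). In the libraries with more muscle reads, UNKC replicate 2 exceeded H7 replicate 2 for 30 (52.1% of all genes).

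**Figure D1:**
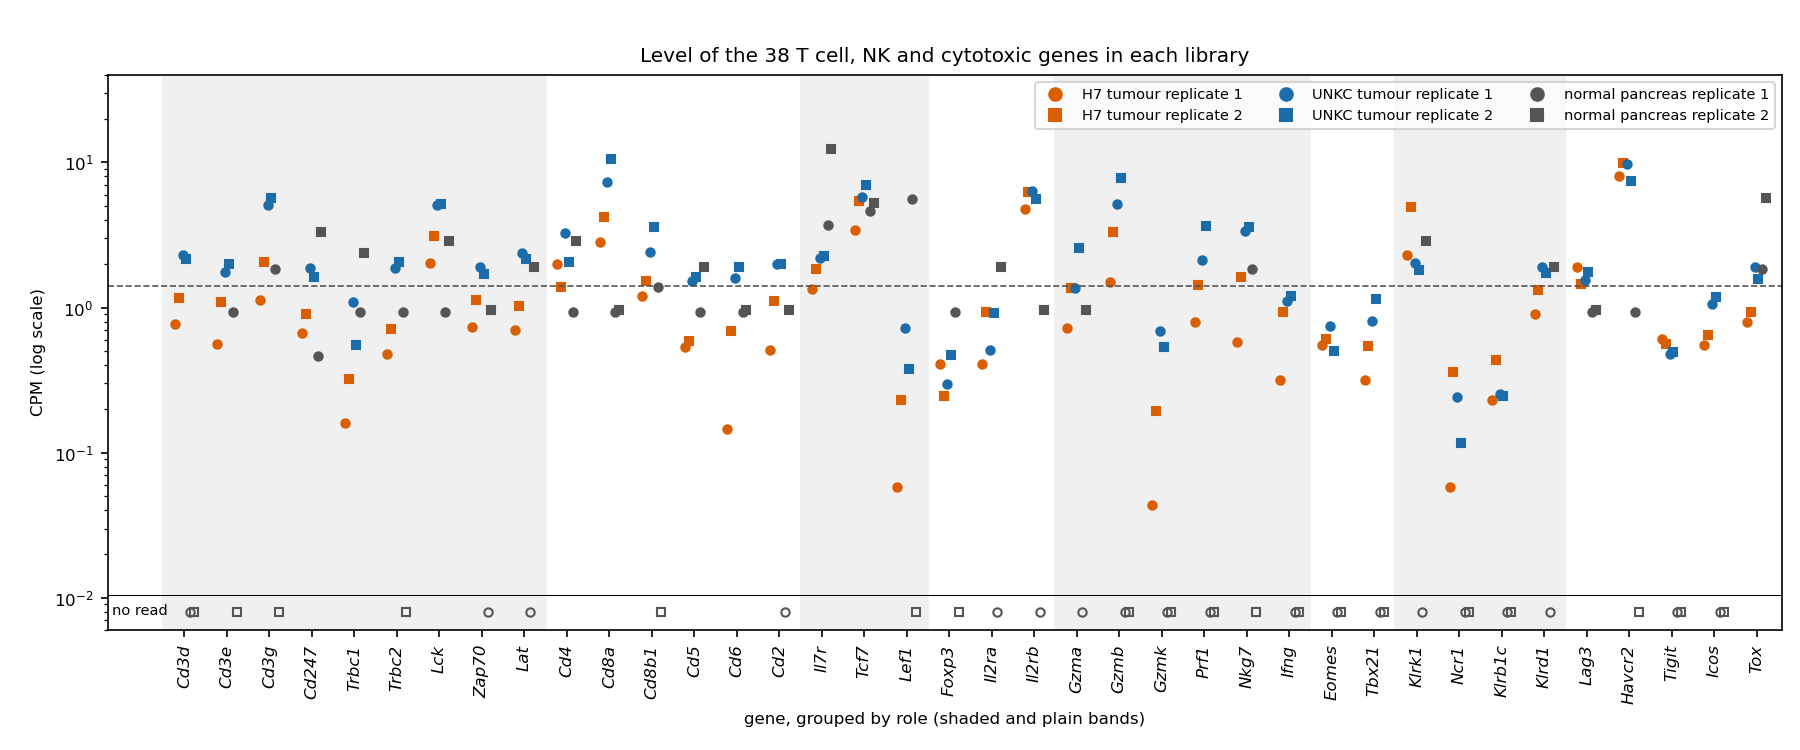
Level of each of the 38 genes in each library, in CPM on a log scale; orange, blue and grey are H7 tumours, UNKC tumours and normal pancreas, circles and squares are replicates 1 and 2, and open symbols in the lowest strip mark libraries without a read. The dashed line is the floor of normal pancreas at 1.41 CPM, and most tumour values, blue above orange for 28 genes, lie within a few CPM of it.

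On reads, the receptor complex and its proximal signalling genes were higher in both UNKC libraries than in both H7 libraries for 9 of 9 genes. Of all tested genes 35.9% had that order. Cd3g, the gamma subunit of CD3, stood at 1.13 and 2.05 CPM in H7, 5.12 and 5.64 CPM in UNKC tumours and 1.85 and 0 CPM in normal pancreas. The tumour groups lay apart, but the fitted difference (log2 fold change -1.75 ± 0.52 SE, edgeR adjusted p = 0.0627) did not pass the threshold. Cd3d, the delta subunit, had 53 and 90 reads in H7, 209 and 183 in UNKC tumours and none in normal pancreas. Its mean level in UNKC tumours was at least 1.58-fold higher than in normal pancreas (edgeR adjusted p = 0.0222, from 0.00722 to 0.1597 over 18 alternatives, of which the fits without UNKC replicate 1, UNKC replicate 2 or both libraries rich in muscle reads ended the call), while its mean in H7 tumours lay below the floor of normal pancreas. In the authors' deposited table Cd3d missed the threshold in UNKC tumours against normal pancreas (DESeq2 adjusted p = 0.0526). Cd3e, the epsilon subunit, stood at 0.565 and 1.09 CPM in H7 and 1.75 and 1.98 CPM in UNKC tumours, with 1 read pair in normal pancreas. The ratio of UNKC tumours to normal pancreas for Cd3e was 3.97 with a 95% counting interval of 0.703 to 158, which covers counting error only, as do all intervals and floors here.

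Trbc2, which encodes a constant segment of the receptor beta chain (gene ID 100125263, chr6:41546730-41548181 of GRCm38), was among the 3 genes called between the tumours. It stood at 0.478 and 0.706 CPM in H7, 1.86 and 2.05 CPM in UNKC tumours and 0.926 and 0 CPM in normal pancreas. The mean in UNKC tumours was 3.30-fold that in H7 tumours (log2 fold change of H7 over UNKC -1.72 ± 0.48 SE, edgeR adjusted p = 0.0473). The call did not survive leaving out any 1 of the 4 tumour libraries (log2 fold changes from -2.02 to -1.44), and it was also lost with RLE factors, with total counts without ribosomal RNA and Lars2 and with a filter at 1 CPM, 7 of 16 alternatives in all (edgeR and DESeq2 adjusted p from 0.00307 to 0.347). Trbc1, the neighbouring constant segment, stood at 0.159 and 0.321 CPM in H7, 1.10 and 0.550 CPM in UNKC tumours and 0.926 and 2.39 CPM in normal pancreas. Transcripts of the 2 segments are identical at 597 of 681 aligned bases, so reads could be shared out differently by another counting, and both genes lie inside the Tcrb locus. Trbc1 held 26.1% and 31.7% of the read pairs of both segments in H7 and 37.3% and 21.4% in UNKC tumours (Wilson 95% intervals 12.5% to 46.5%, 19.6% to 47.0%, 29.6% to 45.7% and 14.8% to 29.9%), and these shares overlap between the tumours.

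Lck, the kinase that phosphorylates the receptor complex first, stood at 2.03 and 3.11 CPM in H7, 5.05 and 5.15 CPM in UNKC tumours and 0.926 and 2.86 CPM in normal pancreas. Zap70, the kinase that binds the phosphorylated CD3 and zeta chains, had 0.739 and 1.13 CPM in H7 and 1.91 and 1.71 CPM in UNKC tumours. Lat, the membrane adaptor downstream of Zap70, had 0.695 and 1.03 CPM in H7 and 2.37 and 2.15 CPM in UNKC tumours. The UNKC libraries were close to each other and above both H7 libraries for all 3 of these genes, and the adjusted p (edgeR) was 0.111, 0.222 and 0.120 in that order. Cd247, the zeta chain, had 46 and 70 reads in H7, 168 and 139 in UNKC tumours and 1 and 7 in normal pancreas. The authors' tables list 251 and 323 fragments for Cd247 in H7, 354 and 385 in UNKC tumours and 2 and 8 in normal pancreas, more than its reads, whereas the other 36 genes listed there had 1.95 to 2.50 reads per fragment. Such an excess was found for 3.78% of 12925 genes. Cd247 overlaps Pou2f1, Gm23402 and Gm32999 in the annotation, and the part of that overlap in the disagreement was not tested. On fragments the log2 fold change of Cd247 against normal pancreas was 0.64 in H7 and 0.76 in UNKC tumours, in place of -1.26 ± 0.79 SE and -0.11 ± 0.74 SE on reads, so no direction against normal pancreas is given for it. Between the tumours its log2 fold change of H7 over UNKC was -0.12 on fragments, in place of -1.15 ± 0.46 SE on reads. The counts of genes with both UNKC libraries above both H7 libraries take Cd247 by its reads.

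Among the coreceptors and surface glycoproteins, both UNKC libraries exceeded both H7 libraries for 6 of 6 genes (35.9% of all genes). Cd8a and Cd5 passed the test between the tumours, as lower in H7 (11.1% of all genes). The sequences just upstream of RefSeq gene starts (GRCm38.p6) are given for 4 members: Cd8a and Cd5, which differed between the tumours, and Gzmb and Havcr2, which were higher in both tumours than in normal pancreas. Each is given 5′ to 3′ on the strand of its gene, for Cd8a at chr6:71373177-71373426 (plus strand), Cd5 at chr19:10739027-10739224 (minus strand), Gzmb at chr14:56262335-56262584 (minus strand) and Havcr2 at chr11:46454681-46454930 (plus strand). Capitals mark matches on either strand to the core letters of 3 motifs of T cell regulators: AGGTGT (T-box, the family of Tbx21 and Eomes), CTTTGA (TCF/LEF, the family of Tcf7 and Lef1) and TGTGGT (RUNX).
Cd8a: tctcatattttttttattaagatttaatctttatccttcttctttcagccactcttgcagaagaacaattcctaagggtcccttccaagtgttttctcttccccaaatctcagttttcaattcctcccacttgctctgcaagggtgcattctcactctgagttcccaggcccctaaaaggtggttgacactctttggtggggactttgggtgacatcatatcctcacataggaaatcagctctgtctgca
Cd5: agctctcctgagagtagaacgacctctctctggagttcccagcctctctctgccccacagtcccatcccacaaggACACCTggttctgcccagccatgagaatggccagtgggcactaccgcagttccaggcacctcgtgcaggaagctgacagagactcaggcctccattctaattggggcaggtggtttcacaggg
Gzmb: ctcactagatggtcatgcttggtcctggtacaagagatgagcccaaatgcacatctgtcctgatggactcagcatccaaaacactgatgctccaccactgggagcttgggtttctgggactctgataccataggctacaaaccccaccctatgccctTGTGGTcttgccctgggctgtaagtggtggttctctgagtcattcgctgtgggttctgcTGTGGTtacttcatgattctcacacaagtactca
Havcr2: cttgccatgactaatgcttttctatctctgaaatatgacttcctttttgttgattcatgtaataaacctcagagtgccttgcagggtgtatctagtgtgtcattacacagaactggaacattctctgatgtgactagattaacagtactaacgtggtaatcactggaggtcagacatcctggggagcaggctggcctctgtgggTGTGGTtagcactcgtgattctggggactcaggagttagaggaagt
In the 250 bases before the start, a T-box match was found in 10 of 36 windows of 27 members with a window (27.8%), against 11.8% of 32851 windows of all genes. A RUNX match was found in 12 of the 36 windows (33.3%, against 14.0% of all) and a TCF/LEF match in 4 (11.1%, against 13.8%). Matches of 2 motifs may overlap and were then both counted. A match is a string of letters and not a site in use. The sequence printed for Cd8a holds none of the 3 motifs, that of Cd5 1 T-box match, that of Gzmb 2 RUNX matches and that of Havcr2 1 RUNX match. For Cd5 198 bases are printed and counted, since the rest of its window lies inside the RefSeq span of the gene. The shares over windows use all 250 bases.

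Cd8a, the alpha chain of the class I coreceptor (gene ID 12525, chr6:71373427-71379171), stood at 2.82 and 4.22 CPM in H7, 7.29 and 10.5 CPM in UNKC tumours and 0.926 and 0.954 CPM in normal pancreas. The 3 groups did not overlap, and UNKC was the highest. Its mean in UNKC tumours was 2.53-fold that in H7 tumours (log2 fold change of H7 over UNKC -1.34 ± 0.29 SE, edgeR adjusted p = 0.0249), and the call was lost without any 1 tumour library (-1.65 to -1.05) and with the tumours thinned to the depth of normal pancreas. Against the 2 read pairs of normal pancreas the ratio was 3.81 in H7 (95% counting interval 1.04 to 31.6, edgeR adjusted p = 0.0266) and 9.44 in UNKC tumours (2.60 to 78.1, edgeR adjusted p = 0.00258). The call in UNKC tumours stood in the 17 alternatives that gave a value for it, which leave aside the fit without the 2 tumour libraries rich in muscle reads, and that in H7 tumours was lost in 7 of 17, among them without H7 replicate 2, normal replicate 1 or normal replicate 2 (log2 fold changes 1.61, 1.91 and 1.96). The authors' deposited table gives Cd8a a log2 fold change of 1.00 (adjusted p = 0.207) in H7 and 2.43 (adjusted p = 0.0145) in UNKC tumours, both against normal pancreas. Of the genes with an adjusted p in the authors' deposited tables, 24.5% were higher and 24.7% lower in H7 and 23.9% higher and 23.5% lower in UNKC tumours at the threshold of 0.05.

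Cd8b1, the beta chain that pairs with Cd8a, stood at 1.20 and 1.51 CPM in H7 and 2.40 and 3.57 CPM in UNKC tumours, with reads in 1 of the 2 normal libraries. Cd4, the class II coreceptor, which some macrophages also carry, stood at 2.00 and 1.39 CPM in H7, 3.26 and 2.05 CPM in UNKC tumours and 0.926 and 2.86 CPM in normal pancreas. H7 replicate 1 and UNKC replicate 2 were all but equal, and Cd4 did not pass the test between the tumours (-0.65 ± 0.41 SE, edgeR adjusted p = 0.349). Of the read pairs of both coreceptors, Cd8a took 58.7% and 75.3% in H7 (Wilson 95% intervals 51.1% to 65.9% and 69.2% to 80.6%) and 69.1% and 83.6% in UNKC tumours (64.8% to 73.1% and 80.3% to 86.5%). The share thus differed more between replicates than between the kinds of tumour. In normal pancreas the same share rests on 6 read pairs in all.

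Cd5, a glycoprotein that dampens receptor signalling in T cells and is also found on some B cells (gene ID 12507, chr19:10718107-10739026), stood at 0.536 and 0.590 CPM in H7, 1.52 and 1.63 CPM in UNKC tumours and 0.926 and 1.91 CPM in normal pancreas. The replicates of each tumour were close and the UNKC mean was 2.79-fold the H7 mean (log2 fold change of H7 over UNKC -1.48 ± 0.34 SE, edgeR adjusted p = 0.0317). The value moved little on leaving out 1 tumour library (-1.55 to -1.39), but the call was lost each time. Of the B cell markers 3 of 10 were lower and none higher in H7 than in UNKC tumours (11.1% and 7.06% of all genes). Their summed levels were 3.03 and 2.49 against 11.2 and 5.05 CPM, and their part in the Cd5 difference was not tested. Cd6, a related receptor, had 10 and 54 reads in H7 and 145 and 162 in UNKC tumours (-2.04 ± 0.61 SE, edgeR adjusted p = 0.0656). Cd2, an adhesion receptor of T and NK cells, stood at 0.507 and 1.10 CPM in H7 and 2.00 CPM in both UNKC libraries (-1.31 ± 0.53 SE, edgeR adjusted p = 0.134).

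**Figure D2:**
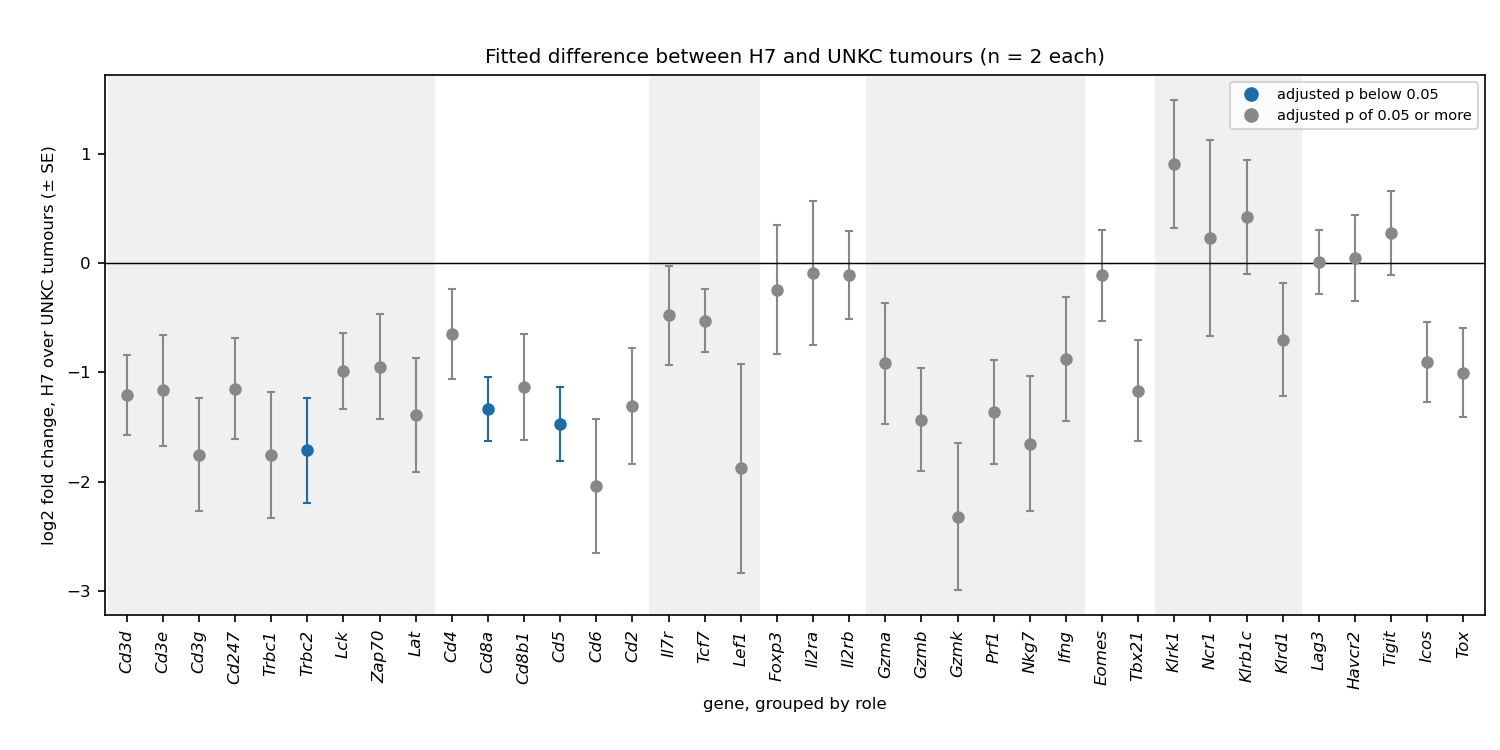
Fitted log2 fold change of H7 over UNKC tumours for each gene, with its standard error; blue points passed the adjusted threshold and grey points did not. Values lie below 0 for 32 of 38 genes, and the 3 blue points are Trbc2 (-1.72), Cd8a (-1.34) and Cd5 (-1.48).

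Genes of naive and memory T cells were higher in both UNKC libraries than in both H7 libraries for 3 of 3 (35.9% of all genes), none of which passed the test between the tumours. Il7r, the receptor chain for interleukin 7 (gene ID 16197, chr15:9506159-9529941), stood at 3.70 and 12.4 CPM in normal pancreas, 1.33 and 1.85 CPM in H7 and 2.19 and 2.25 CPM in UNKC tumours. Both normal libraries lay above all tumour libraries, and Il7r fell in H7 (log2 fold change -2.33 ± 0.55 SE, edgeR adjusted p = 0.0143) and in UNKC tumours (-1.85 ± 0.54 SE, edgeR adjusted p = 0.0324). Without normal replicate 2 the 2 values were -1.18 and -0.71 and neither call was left. The call in H7 was also lost without H7 replicate 1 (-2.05) or 2 (-2.56), and that in UNKC without any 1 tumour library (-1.85 to -1.81). Tcf7, a transcription factor of naive and memory T cells, stood at 3.42 and 5.43 CPM in H7, 5.77 and 7.003 CPM in UNKC tumours and 4.63 and 5.25 CPM in normal pancreas. Its levels overlapped between H7 tumours and normal pancreas, and it overlaps the gene Skp1 in the annotation. Lef1, its close relative, had 12 and 0 reads in the normal libraries, against 4 and 18 in the H7 libraries and 65 and 32 in the UNKC libraries. The call of Lef1 as lower in H7 tumours (edgeR adjusted p = 0.0463, from 0.0146 to 0.692 over 15 alternatives) rests on normal replicate 1, without which the group has no read and the fitted value turns positive.

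Markers of B cells were lower in tumours in the same comparison: 10 of 10 in H7 and 7 of 10 in UNKC tumours (21.9% and 19.3% of all genes). Their summed levels were 43.0 and 75.4 CPM in normal pancreas. Ms4a1, the B cell surface protein CD20, stood at 13.4 and 20.5 CPM in normal pancreas and at most 0.864 CPM in a tumour library. Of 6 lymph node stroma markers 3 were tested, and in each tumour 1 was lower than in normal pancreas and 2 were not called (21.9% and 19.3% of all genes were lower). Cxcl13, a chemokine of lymphoid follicles, stood at 28.2 and 10.97 CPM in normal pancreas and fell in both tumours. The lymph node chemokines Ccl21a and Ccl19 had no read in any library, tumours included. Whether the counting can detect these 2 genes was not tested, so their zeros are not read as absence. The part of lymphoid tissue in the levels of Il7r, Tcf7 and Lef1 in normal pancreas was not tested.

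The genes of regulatory T cells and the interleukin 2 receptor overlapped between the tumours for 3 of 3. Il2rb, the beta chain of the receptors for interleukins 2 and 15 in T and NK cells (gene ID 16185, chr15:78479256-78511621), stood at 4.76 and 6.29 CPM in H7, 6.37 and 5.56 CPM in UNKC tumours and 0 and 0.954 CPM in normal pancreas. Against the single read pair in normal pancreas, the ratio was 11.9 in H7 (95% counting interval 2.12 to 470, edgeR adjusted p = 0.0115) and 12.7 in UNKC tumours (2.28 to 504, edgeR adjusted p = 0.0103). Both calls stood in the 17 alternatives that gave a value for this gene. Without normal replicate 1, which has no read of Il2rb, the log2 fold change was 2.56 in H7 and 2.66 in UNKC tumours in place of 3.55 and 3.66, and without normal replicate 2 no read was left in the group. The authors' deposited table puts Il2rb at a log2 fold change of 2.31 (adjusted p = 0.0532) in H7 and 2.51 (adjusted p = 0.0415) in UNKC tumours. Foxp3, the defining factor of regulatory T cells, had 28 and 19 reads in H7, 27 and 40 in UNKC tumours and 2 and 0 in normal pancreas, which do not separate the groups. It overlaps Ccdc22 and Flicr, and no strand setting of the counting is given in the sources used here. Il2ra, the alpha chain that regulatory and activated T cells display, had 0.406 and 0.924 CPM in H7, 0.510 and 0.913 CPM in UNKC tumours and 0 and 1.91 CPM in normal pancreas.

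The cytotoxic effectors were higher in both UNKC libraries than in both H7 libraries for 6 of 6 genes (35.9% of all genes). None of the 6 passed the test between the tumours, and 4 of the 6 had no read in normal pancreas. Gzmb, the granzyme that cleaves caspases in target cells (gene ID 14939, chr14:56258836-56262334), had 103 and 257 reads in H7, 470 and 663 in UNKC tumours and none in normal pancreas. These are 1.49 and 3.30 CPM in H7 and 5.21 and 7.76 CPM in UNKC tumours. Its mean was at least 1.70-fold higher in H7 (edgeR adjusted p = 0.0464) and at least 4.60-fold higher in UNKC tumours (edgeR adjusted p = 0.0146) than the floor of normal pancreas. Of 19 alternatives, 12 ended the call in H7 tumours (adjusted p from 0.00753 to 0.177 in edgeR and DESeq2), among them those without H7 replicate 2, either UNKC library or either normal library, and 1, the fit without the 2 tumour libraries with muscle reads, ended it in UNKC tumours. The fit without those 2 libraries called none of the 15969 genes it tested in any comparison, Havcr2, Il2rb and Cd8a included. In the authors' deposited table Gzmb missed the threshold in H7 (DESeq2 adjusted p = 0.0821) and passed it in UNKC tumours (DESeq2 adjusted p = 0.00324) against normal pancreas. The UNKC mean of Gzmb was 2.71-fold the H7 mean (log2 fold change of H7 over UNKC -1.43 ± 0.47 SE, edgeR adjusted p = 0.109). Prf1, perforin, which opens the target membrane for granzymes, stood at 0.797 and 1.44 CPM in H7 and 2.13 and 3.65 CPM in UNKC tumours. Its mean was at least 2.05-fold higher in UNKC tumours than the floor of normal pancreas (edgeR adjusted p = 0.0363, from 0.00538 to 0.165 over 18 alternatives, 6 of which ended the call, among them those without H7 replicate 2, UNKC replicate 2, normal replicate 1 or normal replicate 2), and in H7 tumours it lay below that floor.

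Gzma, another granzyme, stood at 0.724 and 1.36 CPM in H7, 1.36 and 2.59 CPM in UNKC tumours and 0 and 0.954 CPM in normal pancreas, so that H7 replicate 2 and UNKC replicate 1 were all but equal. Nkg7, a granule membrane protein, stood at 0.579 and 1.63 CPM in H7 and 3.38 and 3.61 CPM in UNKC tumours (-1.65 ± 0.62 SE, edgeR adjusted p = 0.118). Ifng, interferon gamma, stood at 0.319 and 0.924 CPM in H7 and 1.11 and 1.19 CPM in UNKC tumours. The gap of Ifng between the H7 replicates was wider than that between H7 replicate 2 and the UNKC libraries. Gzmk, a granzyme of memory-like T cells, had 3 and 15 reads in H7 and 62 and 46 in UNKC tumours, the largest fitted difference between tumours among the 38 genes (-2.32 ± 0.68 SE, edgeR adjusted p = 0.0808). Gzmk stands in the authors' UNKC table and not in their H7 table. Gzmb took 67.5% and 70.9% of the read pairs of Gzma and Gzmb in H7 (Wilson 95% intervals 56.5% to 76.9% and 63.9% to 77.0%) and 79.1% and 74.9% in UNKC tumours (74.1% to 83.4% and 70.7% to 78.8%), with intervals that overlap between the tumours.

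The transcription factors of effector cells had no read in normal pancreas, where a level up to the floor of 1.41 CPM would not be seen, and both lay below that floor in the tumours. Tbx21 (T-bet) stood at 0.319 and 0.539 CPM in H7 and 0.809 and 1.14 CPM in UNKC tumours (-1.17 ± 0.46 SE, edgeR adjusted p = 0.164). Eomes, which acts in memory T cells and NK cells, stood at 0.550 and 0.603 CPM in H7 and 0.742 and 0.504 CPM in UNKC tumours, which overlap.

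Of the 4 NK receptor genes 1 was higher in both UNKC libraries (35.9% of all genes), 1 was higher in both H7 libraries (34.5% of all genes) and 2 overlapped. None passed the test between the tumours. Klrk1, the activating receptor NKG2D of NK cells and CD8 T cells (gene ID 27007, chr6:129610323-129623903), stood at 2.29 and 4.94 CPM in H7, 2.03 and 1.83 CPM in UNKC tumours and 0 and 2.86 CPM in normal pancreas. Both H7 libraries lay above both UNKC libraries, with a narrow gap from H7 replicate 1, and the difference missed the threshold (log2 fold change 0.91 ± 0.59 SE, edgeR adjusted p = 0.360). Without H7 replicate 2 it was 0.25. Ncr1 (NKp46), a defining receptor of NK cells, had 4 and 28 reads in H7, 22 and 10 in UNKC tumours and none in normal pancreas. Klrb1c (NK1.1), the marker by which NK cells of this mouse strain are usually recognised, had 16 and 34 reads in H7 and 23 and 21 in UNKC tumours. At these counts no difference was detectable for either. Klrd1 (CD94), which NK cells and cytotoxic T cells share, was the NK receptor gene with both UNKC libraries higher: 1.89 and 1.72 CPM against 0.898 and 1.32 CPM in H7 (-0.70 ± 0.51 SE, edgeR adjusted p = 0.420).

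Of the checkpoint, costimulation and exhaustion genes, 2 of 5 were higher in both UNKC libraries (35.9% of all genes), 1 in both H7 libraries (34.5%) and 2 overlapped. Havcr2, which encodes TIM-3 (gene ID 171285, chr11:46454931-46481255), stood at 8.02 and 9.83 CPM in H7, 9.80 and 7.45 CPM in UNKC tumours and 0.926 and 0 CPM in normal pancreas. It was the most abundant of the 37 members with a known length in H7 tumours (3.28 CPM per kilobase) and rank 5 in UNKC tumours (3.17 CPM per kilobase). Against the 1 read pair in normal pancreas the ratio was 19.1 in H7 (95% counting interval 3.42 to 756, edgeR adjusted p = 0.00389) and 18.4 in UNKC tumours (3.30 to 729, edgeR adjusted p = 0.00437), and both calls stood in the 17 alternatives that gave a value for it. Without normal replicate 2, which has no read of Havcr2, the log2 fold change was 3.30 in H7 and 3.25 in UNKC tumours in place of 4.24 and 4.19, and without normal replicate 1 no read was left in the group. The authors' deposited table gives Havcr2 a log2 fold change of 3.22 (adjusted p = 0.0149) in H7 and 3.11 (adjusted p = 0.018) in UNKC tumours.

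Havcr2 is known from macrophages and dendritic cells as well as from exhausted T cells, and Ptprc (CD45) marks all leukocytes. Of 10 macrophage markers 8 were higher and 1 lower in H7 than in normal pancreas (29.6% and 21.9% of all genes). In UNKC tumours 7 of these markers were higher and 1 lower than in normal pancreas (29.1% and 19.3% of all genes). Between the tumours 3 of the macrophage markers were higher and 1 lower in H7 (7.06% and 11.1% of all genes). Their summed level was 1064 and 896 CPM in H7, 505 and 499 CPM in UNKC tumours and 134 and 232 CPM in normal pancreas, and no macrophage marker was without reads in a group. Ptprc stood at 86.2 and 92.4 CPM in H7, 57.5 and 51.4 CPM in UNKC tumours and 40.7 and 43.4 CPM in normal pancreas, and it was higher in H7 than in UNKC tumours (log2 fold change 0.71 ± 0.13 SE, edgeR adjusted p = 0.0146). Of 7 pan-leukocyte markers Ptprc was the 1 that rose and Cd37, which is strong in B cells, the 1 that fell in H7 against UNKC tumours (0.420 and 0.449 against 1.27 and 1.17 CPM). Both H7 libraries lay above both UNKC libraries for 5 of these markers and below for 2 (34.5% and 35.9% of all genes). Their summed levels were 229 and 252 CPM in H7, 219 and 182 CPM in UNKC tumours and 70.4 and 114 CPM in normal pancreas. The 6 dendritic cell markers summed to 66.0 and 79.0 CPM in H7, 25.5 and 25.7 CPM in UNKC tumours and 23.1 and 28.2 CPM in normal pancreas. Of these markers 1 was higher and none lower in H7 than in UNKC tumours (7.06% and 11.1% of all genes). The part of macrophages in the level of Havcr2, Cd4 and Klrk1, and of dendritic cells in that of Havcr2, was not tested.

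Lag3, an inhibitory receptor for class II molecules, stood at 1.90 and 1.45 CPM in H7, 1.55 and 1.77 CPM in UNKC tumours and 0.926 and 0.954 CPM in normal pancreas, with a fitted difference between the tumours of 0.01 ± 0.29 SE on the log2 scale. Tigit, an inhibitory receptor for nectins, had 42 and 44 reads in H7 and 43 and 42 in UNKC tumours, or 0.608 and 0.565 against 0.476 and 0.492 CPM, and none in normal pancreas. Its order between the tumours is smaller than the counting error of such reads, and it overlaps Zbtb20. Icos, a costimulatory receptor of activated T cells, stood at 0.550 and 0.642 CPM in H7 and 1.05 and 1.18 CPM in UNKC tumours. Icos was called higher in UNKC tumours than in normal pancreas (edgeR adjusted p = 0.0497, from 0.0298 to 0.221 over 18 alternatives, 15 of which ended the call, among them each fit without 1 library), but its mean lay below the floor of normal pancreas and no fold is given. The authors' deposited table did not call Icos in UNKC tumours (DESeq2 adjusted p = 0.2265). Tox, a factor of exhausted T cells that other tissues also express, stood at 0.797 and 0.937 CPM in H7, 1.91 and 1.58 CPM in UNKC tumours and 1.85 and 5.73 CPM in normal pancreas. Tox fell in H7 tumours against normal pancreas (log2 fold change -2.12 ± 0.58 SE, edgeR adjusted p = 0.0245), and the call was lost without H7 replicate 1 (-1.94), H7 replicate 2 (-2.21), UNKC replicate 1 (-2.09) or normal replicate 2 (-1.06).

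The counts of these comparisons share the normal libraries, so agreement between H7 and UNKC tumours against normal pancreas is not independent. Over the 38 genes the median log2 fold change against normal pancreas was 0.83 in H7 and 2.02 in UNKC tumours as fitted, against 0.34 and 0.42 over all genes. With the 11 genes absent from normal pancreas set at their bound, the tumour mean over the floor of normal pancreas, the medians were -0.25 and 0.58. Of those 11 genes, 1 in H7 and 3 in UNKC tumours had a mean above that floor. The others entered with values below 0 although no fold can be given for them. Both medians are therefore lower limits, and the negative one is no sign of a fall. Of the 27 genes with reads in normal pancreas, 15 were fitted higher in H7 and 20 in UNKC tumours. Most of all tested genes were fitted higher too, as their medians above 0 show, and the exact share was not computed.

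To describe the make-up of the T and NK signal within a library, reads of each gene were set against those of the 6 receptor complex genes (Cd3d, Cd3e, Cd3g, Cd247, Trbc1 and Trbc2), which scaling between libraries does not touch. Cd247, whose reads and fragments disagree, made up 17.7 and 14.4 of 100 reads of the complex in H7 and 13.3 and 11.6 in UNKC tumours. No ratio was formed on fragments or without Cd247, so all of them rest in part on its reads. The complex had 260 and 485 reads in H7, 1264 and 1195 in UNKC tumours and 11 and 12 in normal pancreas, or 3.77 and 6.23 CPM in H7, 14.0 and 14.0 CPM in UNKC tumours and 5.09 and 5.73 CPM in normal pancreas. Of the other 32 genes, 18 had more reads per receptor complex read in both H7 libraries than in both UNKC libraries, 2 (Cd6 and Gzmk) had fewer and 12 overlapped. Over all tested genes the shares were 79.6% and 8.22%, since the receptor complex itself was lower in H7 libraries and a gene at an equal level has more reads per receptor read there. The 18 genes are therefore no result about the group. Klrk1 differed most in this measure among the 32: 60.8 and 79.4 reads per 100 receptor complex reads in H7 against 14.5 and 13.1 in UNKC tumours. Havcr2 had 213 and 158 against 70.0 and 53.2, and Il2rb 127 and 101 against 45.5 and 39.7. Klrb1c had 6.15 and 7.01 against 1.82 and 1.76.

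Gzmb had 39.6 and 53.0 reads per 100 receptor complex reads in H7 and 37.2 and 55.5 in UNKC tumours, and Prf1 had 21.2 and 23.1 against 15.2 and 26.1. Cd8a had 75.0 and 67.8 against 52.1 and 75.2. For these 3 genes the libraries of the 2 kinds of tumour overlapped. Il7r had 35.4 and 29.7 against 15.7 and 16.1 and Tcf7 90.8 and 87.2 against 41.2 and 50.04, both higher in H7 in this measure, as were 79.6% of all tested genes. In CPM both genes were lower in both H7 libraries than in both UNKC libraries. Ptprc had 2290 and 1484 reads per 100 receptor complex reads in H7 and 411 and 368 in UNKC tumours. No test was run on these values, as 2 libraries a group cannot give a small permutation p.

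**Figure D3:**
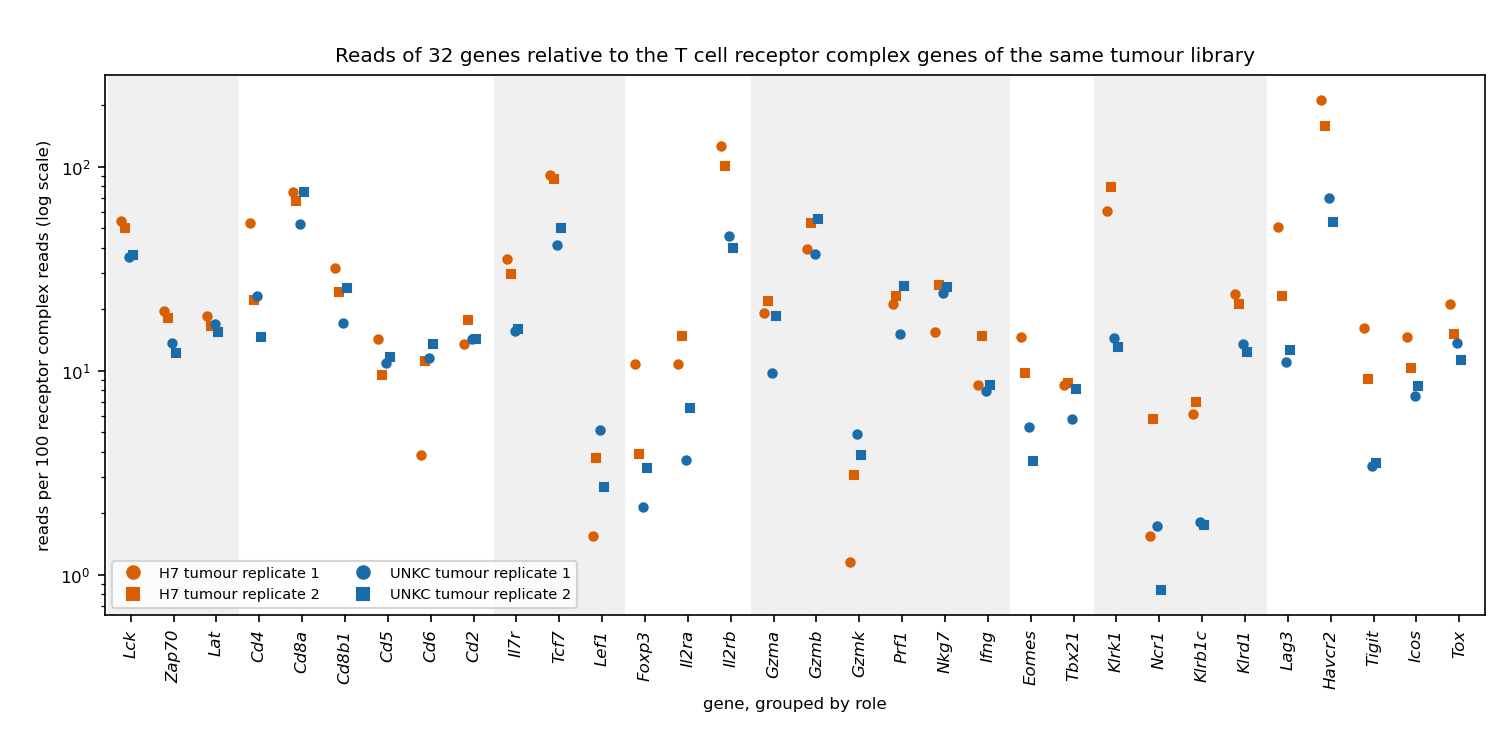
Reads of 32 genes per 100 reads of the 6 receptor complex genes in the same tumour library, on a log scale, with H7 in orange, UNKC in blue, and circles and squares for replicates 1 and 2. Klrk1, Havcr2 and Il2rb lie higher in both H7 libraries, as do 79.6% of all tested genes in this measure, while Gzmb, Prf1 and Cd8a overlap.

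Other genes of T cell receptor signalling were examined as a list of 18. In H7 against UNKC tumours 5 were lower and 1 higher (11.1% and 7.06% of all genes). Both UNKC libraries were above both H7 libraries for 13 (35.9% of all genes). Against normal pancreas the list had 1 higher and 1 lower in H7 (29.6% and 21.9% of all genes) and 2 higher with 1 lower in UNKC tumours (29.1% and 19.3%). Bcl11b, a transcription factor that keeps T cell identity, stood at 0.565 and 0.847 CPM in H7 and 6.61 and 6.02 CPM in UNKC tumours and was absent from the reads of normal pancreas (H7 over UNKC -3.15 ± 0.35 SE, edgeR adjusted p = 0.0055). Thy1, a surface protein of T cells and of fibroblasts, stood at 2.24 and 5.10 CPM in H7 and 11.2 and 17.4 CPM in UNKC tumours (-1.96 ± 0.44 SE, edgeR adjusted p = 0.0307). Fyb, an adaptor of T cells and myeloid cells, went the other way with 30.7 and 22.1 against 11.9 and 10.2 CPM (1.26 ± 0.25 SE, edgeR adjusted p = 0.0201).

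Of 12 other cytotoxic effectors, 10 of which were tested, 3 were lower and none higher in H7 than in UNKC tumours (11.1% and 7.06% of all genes). In each tumour 3 were higher than in normal pancreas (29.6% of all genes in H7 and 29.1% in UNKC tumours). Ccl5, a chemokine released by activated cytotoxic cells, stood at 1.23 and 1.49 CPM in H7 and 7.76 and 8.47 CPM in UNKC tumours, with no read in normal pancreas (H7 over UNKC -2.57 ± 0.28 SE, edgeR adjusted p = 0.0052). Its mean in UNKC tumours was at least 5.76-fold higher than the floor of normal pancreas. Gzme, a granzyme named after its values were seen, had no read in either H7 library and 200 and 86 reads in UNKC tumours. Srgn and Lamp1, granule genes that many cell types use, rose in both tumours against normal pancreas and did not separate the tumours.

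Among 15 other genes of NK and innate lymphoid cells, 13 of which were tested, 2 were lower and 1 higher in H7 than in UNKC tumours (11.1% and 7.06% of all genes). Id2, a factor required by NK cells but expressed in many tissues, stood at 18.0 and 17.5 CPM in H7 and 105 and 103 CPM in UNKC tumours (-2.55 ± 0.31 SE, edgeR adjusted p = 0.00439). Fcer1g, a signalling chain of NK cells, macrophages and mast cells, stood at 24.6 and 23.0 against 9.59 and 9.92 CPM (1.29 ± 0.17 SE, edgeR adjusted p = 0.00572). Il18rap, a chain of the interleukin 18 receptor, had no read in normal pancreas and rose by at least 4.98-fold in H7 and at least 8.67-fold in UNKC tumours. Its tumour groups were 6.13 and 7.91 against 12.4 and 12.1 CPM, a difference that did not pass the test (edgeR adjusted p = 0.0763).

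Ligands and cytokines for the receptors described above were followed in a list of 18 genes with 16 tested. Of these 7 were higher and 1 lower in each tumour than in normal pancreas (29.6% and 21.9% of all genes in H7, 29.1% and 19.3% in UNKC tumours). Between the tumours 3 were higher and 3 lower in H7 (7.06% and 11.1% of all genes). Il7, the cytokine bound by Il7r, stood at 32.1 and 25.8 CPM in H7, 1.68 and 2.47 CPM in UNKC tumours and 0.926 and 0 CPM in normal pancreas. It was higher in H7 than in UNKC tumours by 3.80 ± 0.44 SE on the log2 scale (edgeR adjusted p = 0.00206), whereas the level of its receptor chain Il7r did not pass the test between the tumours (-0.48 ± 0.45 SE, edgeR adjusted p = 0.542). Il7 took 96.0% and 93.3% of the read pairs of Il7 and Il7r in H7 and 43.4% and 52.5% in UNKC tumours (Wilson 95% intervals 94.7% to 97.0%, 91.7% to 94.7%, 36.3% to 50.8% and 45.6% to 59.3%).

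Of the NKG2D ligands, Raet1e stood at 13.8 and 16.1 CPM in H7, 6.56 and 4.86 CPM in UNKC tumours and 0.926 and 1.91 CPM in normal pancreas (H7 over UNKC 1.39 ± 0.25 SE, edgeR adjusted p = 0.0148). Both H7 libraries lay above both UNKC libraries for Raet1e and for its receptor gene Klrk1, of which Raet1e passed the test. Ulbp1, another NKG2D ligand, stood at 10.7 and 10.2 CPM in H7, 9.22 and 9.54 CPM in UNKC tumours and 1.39 and 0.954 CPM in normal pancreas and rose in both tumours.

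Of the ligands of Tigit, Nectin2 and Nectin3 were lower in H7 than in UNKC tumours and Pvr did not pass the test (19.7 and 16.2 against 20.3 and 19.6 CPM). Nectin3 stood at 0.985 and 1.10 CPM in H7, 14.3 and 13.4 CPM in UNKC tumours and 6.48 and 5.73 CPM in normal pancreas, so that it fell in H7 (-2.54 ± 0.26 SE, edgeR adjusted p = 0.000658) and rose in UNKC tumours (1.18 ± 0.24 SE, edgeR adjusted p = 0.0082), with a difference between the tumours of -3.72 ± 0.22 SE (edgeR adjusted p = 0.000696). Nectin2 stood at 14.1 and 13.6 CPM in H7 and 34.1 and 29.5 CPM in UNKC tumours (-1.20 ± 0.20 SE, edgeR adjusted p = 0.0116). Alcam, the ligand of Cd6, stood at 82.7 and 83.8 CPM in H7 and 298 and 238 CPM in UNKC tumours (-1.69 ± 0.16 SE, edgeR adjusted p = 0.00206). Epithelial markers, 3 of 5 lower and none higher in H7 than in UNKC tumours (11.1% and 7.06% of all genes) and summing to 383 and 374 against 1062 and 897 CPM, moved with these adhesion genes, and their part was not tested. Cd48, the ligand of Cd2 in mice, stood at 8.23 and 8.64 CPM in H7 and 4.90 and 4.17 CPM in UNKC tumours (0.90 ± 0.20 SE, edgeR adjusted p = 0.0324), opposite to Cd2. Lgals9, a ligand of TIM-3, rose in both tumours and stood at 39.4 and 50.1 CPM in H7, 37.4 and 37.6 CPM in UNKC tumours and 6.48 and 10.5 CPM in normal pancreas.

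**Figure D4:**
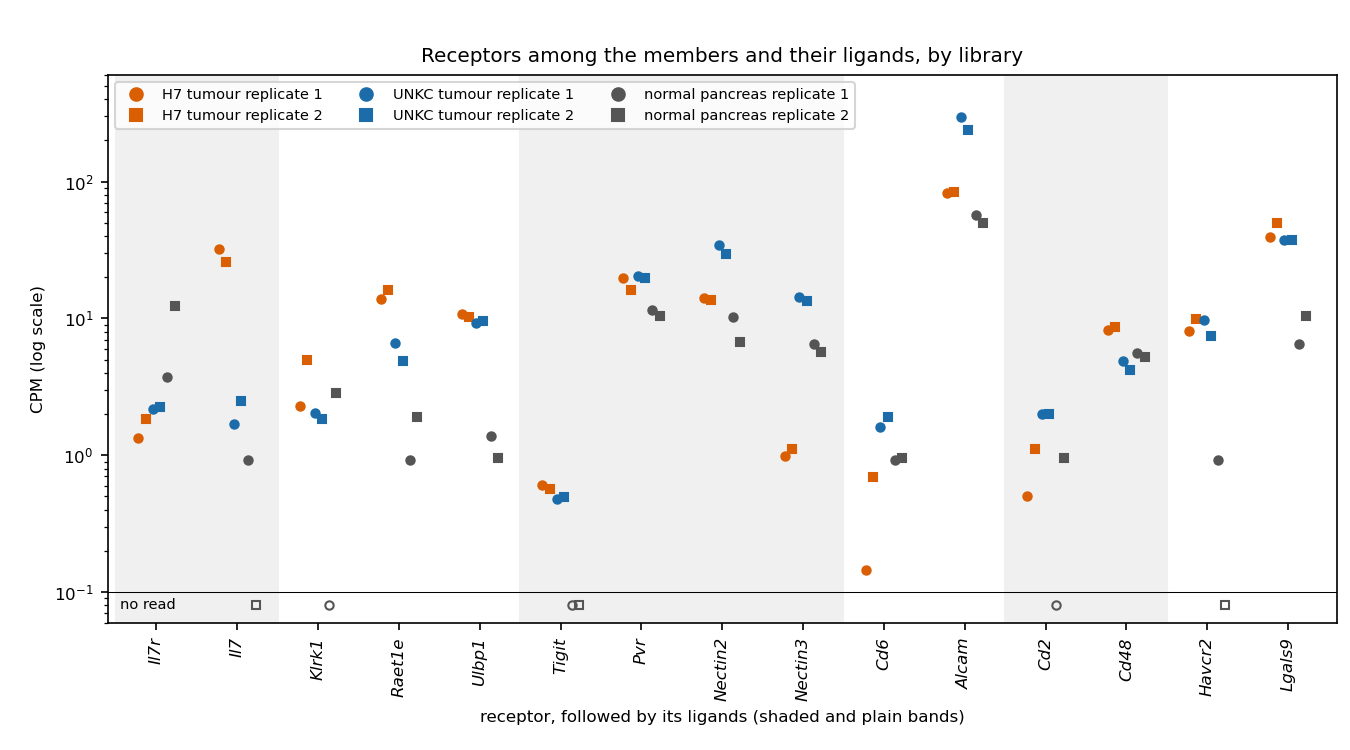
Levels of receptor genes and their ligand genes by library, in CPM on a log scale, with H7 in orange, UNKC in blue, normal pancreas in grey, circles and squares for replicates 1 and 2, and open symbols in the lowest strip for no read. Il7 and Raet1e lie higher in both H7 libraries, and Nectin2, Nectin3 and Alcam lie higher in both UNKC libraries.

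Per kilobase of transcript, which allows genes to be ordered within a group, the leading members in UNKC tumours were Cd3g (5.26 CPM per kilobase), Gzmb (4.57), Nkg7 (4.30) and Trbc2 (3.76). In H7 tumours they were Havcr2 (3.28), Il2rb (2.05), Tcf7 (1.98) and Gzmb (1.69), and in normal pancreas Trbc1 (3.19), Il7r (2.51) and Tcf7 (2.21). The order in normal pancreas rests on few reads, with 4 read pairs over both libraries for Trbc1, 17 for Il7r and 11 for Tcf7. Tcf7 and Il2rb, neighbours in the order of H7 tumours, differed by less than their replicates did. The lowest members with reads were Lef1 in H7 (0.0587 CPM per kilobase) and Klrb1c in UNKC tumours (0.0951 CPM per kilobase).

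A shared estimate of spread over all 6 libraries includes the normal pancreas, whose replicates were less alike. With only the 4 tumour libraries fitted, 7 of the 38 genes were lower in H7 than in UNKC tumours (Cd3d, Cd3g, Cd247, Trbc2, Lat, Cd8a and Cd5), against 15.5% of all genes, and none was higher, against 14.4%. Cd247 was taken here by its reads, which disagree with its fragments. DESeq2 called 5 lower, against 14.9% of all genes, and none higher, against 15.1%. Against normal pancreas the same fits on 4 libraries called 2 of the genes higher and 3 lower in H7 (27.5% and 22.1% of all genes) and 6 higher and 0 lower in UNKC tumours (25.1% and 19.3%). DESeq2 called 4 higher and 4 lower in H7 (27.0% and 28.7% of all genes) and 8 higher and 2 lower in UNKC tumours (26.8% and 26.5%). With any 1 tumour library left out, the count of lower genes was 1 without H7 replicate 2 (4.45% of all genes) and 0 without H7 replicate 1 (2.23%), UNKC replicate 1 (5.67%) or UNKC replicate 2 (7.01%). Without either normal library it was 7, against 14.4% of all genes.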

How the data were processed

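RNA of 6 libraries was measured by sequencing of total RNA. Reads were aligned and counted by the authors against mm10 (STAR and featureCounts are named in the submitters' processing notes, as is DESeq2 1.18.1), and whole-number counts per gene ID were deposited for each sample; the strand setting is not given in the sources used here. The authors' deposited comparison tables also hold fragment counts, TPM values, log2 fold changes and p-values against normal pancreas. Per-sample counts were a median of 1.98 to 2.00 times the fragment counts, so both mates were taken to be counted.

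The counts were tested with edgeR 4.0.16 in R 4.3.3 (TMM factors, filterByExpr, quasi-likelihood fit with group as the only term, all 6 libraries), with Benjamini-Hochberg adjustment over 16306 genes and a threshold of 0.05. Standard errors were derived from the fold change and the F statistic. CPM values use TMM effective library sizes. Ratios against 1 to 3 read pairs carry exact binomial 95% intervals and shares carry Wilson 95% intervals. The 17 alternatives planned were other scalings, filters, DESeq2 1.42.0, fewer libraries, thinned, halved or fragment counts and each library left out, and 3 more were chosen after seeing the data.

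The 38 genes and all lists were chosen with earlier results of these data known. Context genes are named from those past the threshold whose higher group reached 5 CPM, up to 3 in each direction; Gzme, Il10 and the lymph node chemokines fall outside that rule and were chosen after their values were seen. Of the 38 genes 13 overlap another RefSeq gene. Promoter sequences and coordinates are from RefSeq (GRCm38.p6, the assembly of mm10). The labels do not say what a replicate number marks, and with 2 replicates a group the numbers were not taken as pairs. The correlations of replicate differences were 0.55 between H7 and UNKC libraries, whose replicates 2 both hold muscle reads, 0.01 between H7 and normal and -0.03 between UNKC and normal libraries.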

Additional observations from a re-analysis of the deposited data

Results flagged for a closer look

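The change against normal pancreas differed between the 2 kinds of tumour, by a test of the difference itself in edgeR, for 3 of the 38 genes. That test is the contrast of H7 against UNKC tumours given above, so these are the same 3 calls. Trbc2 and Cd5 were not called against normal pancreas in either tumour. The difference of H7 minus UNKC tumours on the log2 scale was -1.72 for Trbc2, -1.34 for Cd8a and -1.48 for Cd5. Both H7 libraries lay below both UNKC libraries for each of them, and each call was lost when 1 tumour library was left out.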

How the results depend on the processing

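Of 963 values of the 38 genes under the alternatives, 858 kept their direction and side of the threshold, 44 lost the call, 31 gained one and 30 changed sign. Counts of called genes: higher in H7 than normal pancreas (4), 2 with upper-quartile factors and with only the 4 libraries compared, 2 to 4 leaving 1 library out; lower in H7 (3), 0 with tumours thinned to the depth of normal pancreas and 0 to 3 leaving 1 out. Higher in UNKC tumours (7), 4 when thinned and 4 to 9 leaving 1 out; lower in UNKC (1), 2 with DESeq2, 0 with total counts without ribosomal RNA and Lars2, with only the 4 libraries compared and when thinned, and 0 to 2 leaving 1 out. Lower in H7 than UNKC tumours (3), 5 with DESeq2 and with halved counts, 7 with only the 4 libraries compared, 0 when thinned and 0 to 7 leaving 1 out. With the replicate block it was 7 (12.5% of all genes were lower). With the block and only the 4 tumour libraries it was 15 of 38 (17.9% of all genes), a share above the background. The fit of the same 4 libraries without the block called 7 of 38 (15.5% of all genes). The fit with the block on 4 libraries was chosen after the data were seen, and the labels do not say whether the numbers pair the samples. Each count was 0 without both libraries rich in muscle reads. When thinned, 6 of the 38 genes passed the filter; the cause of the other shifts was not tested.

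Signs turned with total counts without ribosomal RNA and Lars2 for Cd4 (0.41) and Tcf7 (0.39) in H7 and Cd247 (0.43) in UNKC against normal pancreas, with fragment counts for Cd247 (0.64 in H7, 0.76 in UNKC) and Tcf7 (0.12 in H7), and when thinned for Tcf7 in UNKC (-0.19). Leaving 1 library out, H7 against normal pancreas ranged from -2.06 to 0.79 for Cd247, -0.73 to 0.90 for Cd4, -0.13 to 1.51 for Lck, -5.51 to 6.28 for Lef1 and -0.50 to 0.20 for Tcf7. UNKC against normal pancreas ranged from -0.91 to 1.94 for Cd247, -0.086 to 1.55 for Cd4 and -3.30 to 8.16 for Lef1. H7 against UNKC ranged from -0.36 to 0.20 for Eomes, -0.62 to 0.10 for Foxp3, -0.14 to 0.27 for Havcr2, -0.80 to 0.41 for Il2ra, -0.32 to 0.10 for Il2rb, -0.11 to 0.82 for Klrb1c, -0.17 to 0.20 for Lag3 and -1.60 to 1.00 for Ncr1.

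Scaling moved the median of all genes against normal pancreas (H7, UNKC) by -0.17 and -0.20 with RLE factors, -0.36 and -0.36 with upper-quartile factors, 0.54 and 0.50 with total counts without ribosomal RNA and Lars2, and -0.15 and -0.19 in DESeq2. A median tested gene had 11 and 12 reads in the normal libraries, which limits every comparison with them.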

Other observations

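Of 9 lymphocyte homing genes 3 were lower and none higher in H7 than in UNKC tumours (11.1% and 7.06% of all genes). Both UNKC libraries lay above both H7 libraries for 8 (35.9% of all genes). Cxcr6, a chemokine receptor of tissue-resident and effector T cells, stood at 1.71 and 2.70 CPM in H7 and 5.99 and 7.28 CPM in UNKC tumours (log2 fold change -1.59, edgeR adjusted p = 0.0260). Itgb7, an integrin chain of mucosal lymphocytes, stood at 2.35 and 4.78 against 10.4 and 11.1 CPM (-1.59, edgeR adjusted p = 0.0307). Klf2, a factor of circulating T cells that endothelium also expresses, stood at 2.09 and 2.34 against 5.66 and 7.64 CPM (-1.59, edgeR adjusted p = 0.0118).

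Of 12 other costimulation, activation and regulatory T cell genes, 11 of which were tested, 2 were lower and 1 higher in H7 than in UNKC tumours (11.1% and 7.06% of all genes). Tnfrsf9 (4-1BB), a costimulatory receptor of activated T cells, had no read in normal pancreas and exceeded its floor there at least 8.79-fold in H7 and at least 8.02-fold in UNKC tumours. Ikzf2 (Helios), which some regulatory T cells and other cells express, stood at 5.84 and 5.35 CPM in H7, 19.3 and 18.7 CPM in UNKC tumours and 38.9 and 34.8 CPM in normal pancreas and fell in both tumours. Il10, an inhibitory cytokine, stood at 0.0869 and 0.0513 CPM in H7 and 1.10 and 1.17 CPM in UNKC tumours (-4.01, edgeR adjusted p = 0.00577). Entpd1 (CD39), an ectoenzyme of regulatory and exhausted T cells and of myeloid cells and endothelium, stood at 25.0 and 32.9 against 11.8 and 15.3 CPM (1.09, edgeR adjusted p = 0.0350).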
